A study of Mus musculus with 24 samples.

Results

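Hippocampal gene expression was compared between 3-month-old C57Bl/6 mice that had only explored a chamber (context, 4 mice) and mice of the same age and strain that met the same chamber but were shocked at the moment of entry and explored it only afterwards (shock-context, 4 mice; young_shock_red in the sample titles). These 8 arrays were taken by their titles from the 24 of the series. Hippocampi were collected 1 h after the exposure, RNA of high integrity was selected, and each mouse was hybridised to its own Agilent 1-colour array. The labels give the shock current and duration, and the time in the chamber, only for the fear-conditioned mice, and give no sex. Neither group had the chamber followed by a shock, which is the sequence that forms contextual fear, so the comparison sets a mouse that explored without pain against one that was shocked before it could explore. The other arrays used below were those of 4 handled mice of 3 months, untrained, and of 4 mice of 3 months taken 1 h after contextual fear conditioning, with 3 min in the chamber before a foot shock of 0.7 mA for 2 s.

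Exploring an unfamiliar place drives firing in hippocampal neurons. Calcium entry and the MAP kinase and protein kinase A pathways then switch on immediate early genes within minutes, first transcription factors (Fos, Egr1, Npas4) and next effectors that act at synapses (Arc, Homer1, Bdnf). Shock and novelty also release glucocorticoids, which induce genes such as Fkbp5, Sgk1, Tsc22d3 and Per1 in brain tissue. A rodent shocked at once on entry is known to show little later fear of that place, a textbook observation called the immediate shock deficit, which is why this exposure serves as a control for associative learning.

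Promoters of activity genes can carry elements that bind CREB and SRF, and the windows of 3 are printed because the readout below turns on genes of this kind. Of 8 activity genes looked up in the RefSeq promoter table (GRCm38.p6), 6 had an entry. Each line gives the 250 bases before a start site, 5′ to 3′ on the strand of the gene. Capitals mark the CRE core TGACG on either strand, the full CRE TGACGTCA, which contains the core on both strands, and the CArG box that binds SRF. Fos lies on chr12:85473640-85473889, plus strand. For Egr2 the window is that before the third of 5 listed starts, chr10:67537619-67537868, plus strand, and Dusp1 lies on chr17:26508473-26508722, minus strand.
Fos: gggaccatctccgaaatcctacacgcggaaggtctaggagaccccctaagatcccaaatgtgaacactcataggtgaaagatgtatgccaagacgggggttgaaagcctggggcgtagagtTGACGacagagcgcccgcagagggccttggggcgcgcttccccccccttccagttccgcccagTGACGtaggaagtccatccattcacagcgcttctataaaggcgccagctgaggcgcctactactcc
Egr2: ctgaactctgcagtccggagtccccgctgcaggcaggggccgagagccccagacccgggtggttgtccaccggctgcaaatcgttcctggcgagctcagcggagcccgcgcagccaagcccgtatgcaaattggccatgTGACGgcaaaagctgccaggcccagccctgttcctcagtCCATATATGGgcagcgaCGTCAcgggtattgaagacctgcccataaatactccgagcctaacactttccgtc
Dusp1: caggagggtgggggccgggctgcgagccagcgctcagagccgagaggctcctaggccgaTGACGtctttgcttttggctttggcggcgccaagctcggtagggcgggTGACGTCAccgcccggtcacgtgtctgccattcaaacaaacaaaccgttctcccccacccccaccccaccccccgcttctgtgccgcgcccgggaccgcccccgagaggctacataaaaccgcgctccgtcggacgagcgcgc
The Fos window held 2 cores and no CArG box, and the Egr2 window 2 cores and 1 CArG box. Before the first listed Egr2 start there was no match to any of these motifs, and before the second 1 CArG box and no core. The Dusp1 window held 1 full CRE, no CArG box and 3 cores, 2 of them inside that CRE. Of 32851 windows in the table, 1.79% held the full CRE, 20.81% a core and 1.63% a CArG box. Those windows run from 250 bases before to 50 after a start, so they are longer than the ones printed and the shares are not directly comparable. These matches are letters in a window and carry no measurement of binding.

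The 8 arrays lay on 2 slides, with 2 arrays of each group on each, and were scanned in a later run than the other 16. Their 75th percentile of signal ran from 3101 to 8369, and 75.1 to 81.4% of probes were well above background, against 757 to 2137 and 86.2 to 93.8% in the first run. Expression is given below as log2 signal minus the 75th percentile of the array, so a level of 0 is the 75th percentile. On principal components of 21366 genes, the first component (50.9% of variance) separated the slides and the groups were mixed along it. Slide 2 differed from slide 1 for 2025 of 21563 genes by limma (9.39%, adjusted p threshold 0.05), 1950 of them lower on slide 2, and the slide was therefore kept as a block in each test. A pair of arrays stood apart: context 3 had 350 outlier spots and 83 saturated spots, against 80 to 126 and 1 to 5 on the other 7 arrays, and shock-context 4 lay at -36.5 on the second component (16.6% of variance). All 34 of 34 hippocampal subfield markers on the list used here, such as Prox1 of the dentate gyrus and Wfs1 of CA1, were well above background on all 8 arrays. So were 19981 of all 21565 genes tested, and 29 of 29 choroid plexus markers. Only probes well above background on 4 or more of the 8 arrays were kept, so this count does not identify the tissue.

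**Figure D1:**
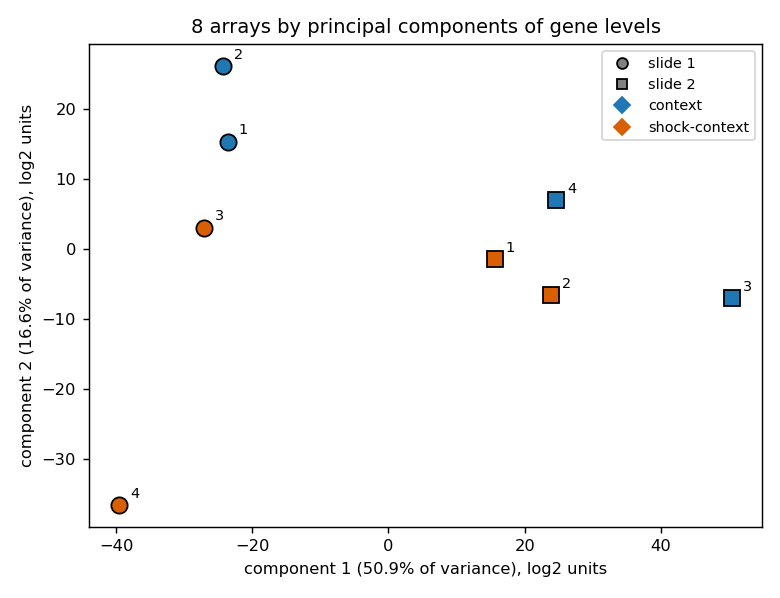
The 8 arrays on the first and second principal components of log2 gene levels, coloured by group, shaped by slide and numbered by replicate. The slides lie on opposite sides of the first component, and shock-context 4 lies alone at -36.5 on the second.

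No gene differed between context and shock-context after adjustment. Of 21565 genes tested by limma with Benjamini-Hochberg adjustment, 0 passed a threshold of 0.05 (0%), and the lowest adjusted p was 0.372. At an unadjusted p under 0.05 there were 2830 genes (13.1%), 1252 higher after context (5.81%) and 1578 lower (7.32%). In 1740 genes the 4 context arrays did not overlap the 4 shock-context arrays (8.07%). The other fits listed under the processing alternatives, 24 in number, each called 0 genes as well. A p that misses the threshold does not show that the groups were alike, so the intervals are given: the 95% interval of the change, not adjusted for the number of genes, lay within 1.5-fold either way for 17446 genes (80.9%) and within 2-fold for 20564 (95.4%). A total of 53 genes had an estimated change over 2-fold, and the median change over all genes was -0.03.

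The 2 slides each held the comparison, with different mice. A gene had the same sign on both for 13067 of 21565 genes (60.6%). The interaction of slide and group passed for 0 genes (0%) by limma with Benjamini-Hochberg adjustment, with 744 at an unadjusted p under 0.05 (3.45%). The median absolute difference between the groups was 0.11, against 0.12 between the slides.

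Among immediate early transcription factors, 0 of 30 measured genes passed, and the list had a median change of 0.00, with 14 members above 0 and 16 below. At an unadjusted p under 0.05 there was 1 member higher and 2 lower, close to the shares over all genes of 5.81% and 7.32%. Of the 30, 25 had a 95% interval within 1.5-fold and 30 within 2-fold. Fos, a component of the AP-1 dimer and a widely used marker of recently active neurons, stood at -0.33, -0.86, -0.70 and -0.77 on context arrays 1 to 4. On shock-context arrays 1 to 4 it stood at -0.82, -0.66, -1.26 and -1.05. The context mean was 0.28 ± 0.16 (SE, n = 4 per group) higher, or 1.22-fold with a 95% interval of 0.94 to 1.57-fold, adjusted p = 0.448 by limma. The groups overlapped, context 1 was highest, and the difference came from slide 1 (0.56) with 0.00 on slide 2. The Fos probe lies on chromosome 12, 86817900 to 86817959 in build mm9, as the files give it.

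Egr1, a zinc finger factor that is among the earliest genes induced by learning, gave the same mean in both groups. It stood at 3.47, 3.04, 3.54 and 3.47 after context and at 3.54, 3.51, 3.23 and 3.28 after shock-context. The change was -0.01 ± 0.10 (95% interval -0.24 to 0.22, adjusted p = 0.977, limma), its sign turning under quantile normalization (0.04), under normexp background correction (0.03) and in the deposited values (0.11). Array context 2 was low for Egr1, and without it the change was 0.08. Npas4, a factor induced by calcium entry at synapses, stood at -2.36, -2.41, -2.66 and -2.43 against -2.25, -2.46, -2.41 and -2.50. Its change was -0.06 ± 0.09 (95% interval -0.28 to 0.16). The Npas4 values of the groups overlapped, with context 3 lowest and shock-context 1 highest.

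The other early factors of the panel overlapped between the groups. Junb, an AP-1 partner of Fos, lay 0.13 ± 0.09 higher after context (adjusted p = 0.506, limma), with context 1 highest at 4.07. Egr2 lay 0.08 ± 0.15 higher, and -0.05 without context 1. Nr4a1, an orphan nuclear receptor, lay 0.04 ± 0.10 higher, and -0.05 without context 1. Context 1 had the highest level of the 8 arrays for Fos, Junb, Egr2, Nr4a1 and Arc, which are measured on the same RNA. The members with an unadjusted p under 0.05 were Jund, Atf3 and Myc. Jund, the constitutive member of the Jun family, stood at 3.76, 3.71, 3.55 and 3.68 after context and at 3.95, 3.87, 3.95 and 4.15 after shock-context. All 4 context arrays lay below all 4 shock-context arrays (change -0.31 ± 0.07, 95% interval -0.48 to -0.14, adjusted p = 0.372, limma), by -0.31 on slide 1 and -0.30 on slide 2. Groups were likewise apart, in this direction, for 917 genes (4.25%). Atf3, a stress-induced factor, lay at 0.38 ± 0.13 and Myc at -0.19 ± 0.07, both with overlapping groups.

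**Figure D2:**
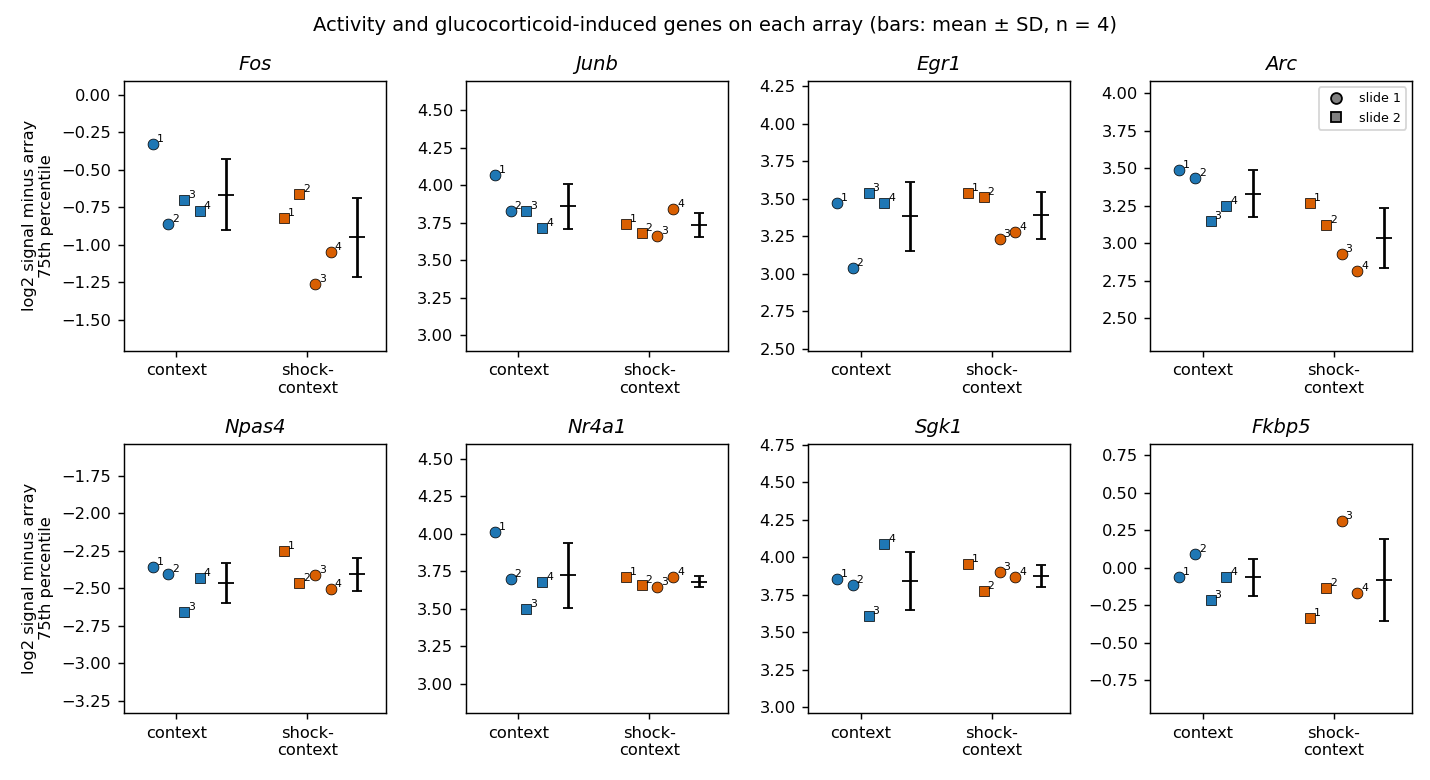
Log2 signal minus the 75th percentile of the array for 8 genes induced by activity or glucocorticoids, 1 point per array, numbered by replicate and shaped by slide, with the mean ± SD of 4 arrays; each panel spans 1.8 log2 units. Groups overlap in all 8 panels, and context 1 is highest for Fos, Junb, Arc and Nr4a1.

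Effector genes that act at synapses and in signalling gave 0 of 29 measured members past the threshold, with a median change of -0.03. Of the 29 members 3 were higher and 2 lower at an unadjusted p under 0.05, against 5.81% and 7.32% of all genes. Arc, whose protein removes AMPA receptors from the synapse, stood at 3.49, 3.43, 3.15 and 3.25 after context and at 3.27, 3.12, 2.93 and 2.82 after shock-context. It was 1.23-fold higher after context, with a 95% interval of 1.00 to 1.51-fold (log2 change 0.30 ± 0.13, unadjusted p = 0.0485 and adjusted p = 0.380, limma). As with Fos, the difference lay on slide 1 (0.59), with 0.00 on slide 2, and the groups overlapped, with context 3 and 4 below shock-context 1. The interaction of slide and group for Arc had an unadjusted p of 0.0062 and an adjusted p = 0.900 by limma.

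Ptgs2, the gene of the inducible cyclooxygenase, was apart on both slides. It stood at -1.56, -1.49, -1.37 and -1.70 after context, all above the shock-context arrays at -2.09, -1.90, -1.71 and -1.96. The change was 0.39 ± 0.10 (95% interval 0.15 to 0.63, adjusted p = 0.372, limma), 0.31 on slide 1 and 0.46 on slide 2, and a second Ptgs2 probe gave 0.35. Groups were apart in this direction for 823 genes (3.82%). Tiparp, a target of the aryl hydrocarbon receptor, lay at 0.26 ± 0.09. Sik1, a kinase that restrains CREB coactivators, lay at -0.21 ± 0.08 and Gadd45g, a gene of DNA damage and demethylation responses, at -0.24 ± 0.10. Homer1, a postsynaptic scaffold, lay at 0.06 ± 0.06 (95% interval -0.09 to 0.21). Bdnf, the neurotrophin, lay at 0.15 ± 0.08, and Dusp1, a MAP kinase phosphatase, at 0.09 ± 0.13 (-0.04 without context 1).

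Genes induced by glucocorticoids gave 0 of 25 measured members past the threshold and a median change of -0.03, the same as over all genes. The 95% interval lay within 1.5-fold for 24 of 25. Fkbp5, a cochaperone that restrains the glucocorticoid receptor, stood at -0.06, 0.09, -0.21 and -0.06 after context and at -0.34, -0.13, 0.31 and -0.17 after shock-context. Its change was 0.02 ± 0.12 (95% interval -0.26 to 0.30, adjusted p = 0.952, limma), with shock-context 3 highest, its sign turned under median scaling (-0.01), and its 3 probes ran from -0.21 to 0.06. Sgk1, a kinase gene, lay at -0.03 ± 0.11, turning to 0.02 under quantile normalization and 0.09 in the deposited values. Tsc22d3 lay at 0.07 ± 0.11, -0.01 without context 3 and -0.08 on another probe, and the clock gene Per1 at -0.04 ± 0.10. Fam107a, an actin regulator raised by stress, was apart between the groups at 0.23 ± 0.08, and Angptl4, a lipase inhibitor, lay at -0.45 ± 0.17. Nr3c2, the mineralocorticoid receptor, lay at -0.22 ± 0.09 on the probe used, but its 3 probes ran from -0.22 to 0.18. Among 22 circadian clock genes 0 passed, with 2 lower at an unadjusted p under 0.05, against 7.32% of all genes. Among those 2 was the clock repressor gene Cry1 at -0.25 ± 0.10, whose 2 probes disagreed in sign (-0.25 and 0.01).

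Receptors, channels and release genes were examined next, since they set how a hippocampal neuron is excited. Of 15 GABA receptor subunits 0 passed. Gabra5, the subunit of extrasynaptic receptors typical of hippocampal pyramidal cells, stood at 2.30, 2.26, 2.39 and 2.17 after context and at 2.00, 2.01, 2.04 and 1.94 after shock-context. The Gabra5 groups did not overlap and the SDs were 0.09 and 0.04. The change was 0.28 ± 0.07 (1.22-fold, 95% interval 1.08 to 1.36-fold, adjusted p = 0.372, limma), 0.29 on slide 1 and 0.27 on slide 2, and a second Gabra5 probe gave 0.11. Of 47 glutamate receptor and postsynaptic density genes 2 were higher and 4 lower at an unadjusted p under 0.05, against 5.81% and 7.32% of all genes. Grin2a, an NMDA receptor subunit, lay at 0.56 ± 0.18, with shock-context 4 at -1.73 and the other 3 shock-context arrays between -0.95 and -0.79. Gria3, an AMPA receptor subunit, lay at 0.16 ± 0.06, the scaffold gene Dlgap3 at -0.29 ± 0.08 and Camk2a at -0.22 ± 0.08. The 2 probes of Camk2a disagreed in sign, -0.22 and 0.09.

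Of 47 genes of presynaptic vesicle release, 12 lay above 0 and 35 below, with a median of -0.08. Over all genes 8903 of 21565 lay above 0 and 12662 below, with a median of -0.03. In the presynaptic list 1 was higher and 5 lower at an unadjusted p under 0.05, against 5.81% and 7.32% of all genes. Doc2a, a calcium sensor of spontaneous release, lay at -0.33 ± 0.09, and Slc32a1, the vesicular GABA transporter, at -0.30 ± 0.09, both with the groups apart. Of 44 genes of protein kinase A, CREB and calcium signalling, 11 lay above 0 and 33 below (median -0.08). Camk2d, a calcium/calmodulin kinase subunit, stood at 1.62, 1.33, 1.48 and 1.59 after context and at 2.02, 1.94, 1.73 and 1.94 after shock-context. The change was -0.40 ± 0.09 (95% interval -0.61 to -0.19, adjusted p = 0.372, limma), with every context array below every shock-context array, while the other 3 of its 4 probes lay nearer 0, up to -0.01. Prkar2b, a regulatory subunit of protein kinase A, lay at -0.24 ± 0.07 and Calm2, a calmodulin gene, at -0.30 ± 0.12, turning to 0.03 in the deposited values. Of 43 voltage-gated channel genes 3 were higher and 1 lower at an unadjusted p under 0.05, against 5.81% and 7.32% of all genes. Among them were the sodium channel Scn2a at 0.23 ± 0.10 and the pacemaker channel Hcn2 at -0.29 ± 0.12. Of 22 monoamine receptor genes 1 was lower, against 7.32% of all genes, the dopamine receptor Drd4 at -0.34 ± 0.10. None of these lists had a member past the adjusted threshold.

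Chromatin and housekeeping lists also had 0 members past the adjusted threshold. Of 35 histone acetyltransferases, deacetylases and partners 5 were lower and 0 higher at an unadjusted p under 0.05, against 7.32% and 5.81% of all genes, among them the deacetylase genes Sirt2 at -0.16 ± 0.06 and Hdac3 at -0.14 ± 0.06, while the highest member, the acetyltransferase gene Kat6a, lay at 0.35 ± 0.27 with shock-context 4 lowest (named after its value was seen). Of 74 genes of oxidative phosphorylation 62 lay below 0 and 12 above, with a median of -0.09 against -0.03 over all genes, of which 12662 of 21565 lay below 0. There were 6 members lower and 0 higher at an unadjusted p under 0.05, the lower share being near the 7.32% of all genes, including Uqcrc1 of complex III at -0.25 ± 0.07 and the ATP synthase subunit gene Atp5g3 at -0.30 ± 0.09. The median was -0.09 on slide 1 and -0.11 on slide 2. Of 80 cytosolic ribosomal protein genes 52 lay below 0. At an unadjusted p under 0.05, 4 were lower and 0 higher, against 7.32% and 5.81% of all genes. Rpl7a lay at -0.30 ± 0.11 on the probe used, and its 3 probes ran from -0.30 to -0.02. Rps14 lay at -0.20 ± 0.07 (0.05 under quantile normalization). Of 33 genes of the heat shock and unfolded protein responses 1 was lower, Chac1 at -0.31 ± 0.12, and Hspb1 lay at 0.30 ± 0.14.

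Markers of cell types and of tissue that borders the hippocampus were followed as a check on what the samples held. In bulk tissue, fewer cells of a type and less RNA per cell cannot be told apart. Of 29 choroid plexus markers 28 lay below 0, with a median of -0.19 that was -0.45 on slide 1 and 0.07 on slide 2. The mean level of these markers ran from 0.24 on context 1 to 1.06 on context 3 and from 0.45 on shock-context 3 to 1.30 on shock-context 4, and all 29 were well above background on all 8 arrays. Ttr, the transthyretin gene of that epithelium, stood at 3.62, 4.19, 4.93 and 4.14 after context and at 4.46, 4.25, 3.83 and 5.09 after shock-context. Its change was -0.19 ± 0.32 (95% interval -0.95 to 0.56), and 0.13 without shock-context 4. The Ttr levels differed more within each group than between them. Context 1, the array highest for Fos and Arc, was lowest for these markers. Their part in those values was not tested.

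Of 37 endothelial, mural and leptomeningeal markers 5 were higher and 0 lower at an unadjusted p under 0.05, against 5.81% and 7.32% of all genes, and 21 lay above 0 and 16 below. Ly6a stood at -0.37, -0.55, -0.25 and -0.45 after context and at -0.60, -0.67, -1.03 and -0.84 after shock-context. The Ly6a groups were apart (0.38 ± 0.09, adjusted p = 0.372, limma), as were those of its relative Ly6c1 (0.33 ± 0.09), the efflux pump gene Abcb1a (0.41 ± 0.11) and the pericyte channel gene Abcc9 (0.25 ± 0.07). The lowest member, the smooth muscle gene Tagln, lay at -0.55 ± 0.25 (no value on context 3; named after its value was seen). The list median was 0.01, and its mean level ran from 0.29 to 0.42 after context and from 0.32 to 0.38 after shock-context. Of 11 blood cell markers measured 1 was higher, Ms4a1, whose 2 probes disagreed in sign (0.65 and -0.43). The globin genes Hba-a1 (0.41 ± 0.25) and Hba-a2 (0.37 ± 0.24), which share sequence, overlapped between the groups. The median of the blood list was 0.50 on slide 1 and -0.04 on slide 2.

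The remaining marker lists gave medians between -0.14 and -0.03. Striatum markers had 3 lower of 23, with Penk at -0.33 ± 0.13 (-0.08 on another probe) and Rxrg at -0.28 ± 0.09. Adora2a, the highest striatum marker, lay at 0.38. In this list 6 lay above 0 and 17 below, the median was -0.14, and 20 of 23 were well above background on all 8 arrays. Thalamus markers had 1 higher and 1 lower of 26 (Plcb4 at 0.52 ± 0.21, Zfp423 at -0.19 ± 0.08) and a median of -0.08. Neocortex and subiculum markers had 3 lower of 28, with Tle4 at -0.18 ± 0.07, while 8 lay above 0 and the highest, Nxph4, lay at 0.89. Hippocampal subfield markers had 2 higher and 3 lower of 34, with the dentate gene Tdo2 at 0.32 ± 0.11 and Mpped1 of CA1 at -0.23 ± 0.10. Astrocyte markers had 1 higher and 3 lower of 24, Fabp7 at 0.27 ± 0.10 and Aldh1l1 at -0.25 ± 0.10, and Gfap, the astrocyte filament gene, lay at -0.07 ± 0.07. Myelin markers had 3 lower of 30, with Sox10 at -0.26 ± 0.11, while 12 lay above 0 and the highest, Gjb1, lay at 0.24. Microglia and complement genes had 1 higher and 1 lower of 30, Gpr34 at 0.20 ± 0.08 and Aif1 at -0.25 ± 0.10 (-0.02 on another probe). Interneuron markers had 2 lower of 27, Slc32a1 and the nitric oxide synthase gene Nos1 (-0.21 ± 0.07, with its second probe at 0.11). The highest interneuron marker, Dlx6, lay at 0.42. Antigen presentation and interferon genes had 1 higher of 36, B2m at 0.30 ± 0.12, and its 3 probes ran from 0.23 to 0.30. Ependymal cilia genes had 1 higher and 1 lower of 28, and neurogenesis and cell division genes 0 of 32 either way. All these counts are at an unadjusted p under 0.05, where 5.81% of all genes were higher and 7.32% lower, and 0 members of the 28 lists passed after adjustment. Adora2a, Nxph4 and Gjb1 were named after their values were seen.

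**Figure D3:**
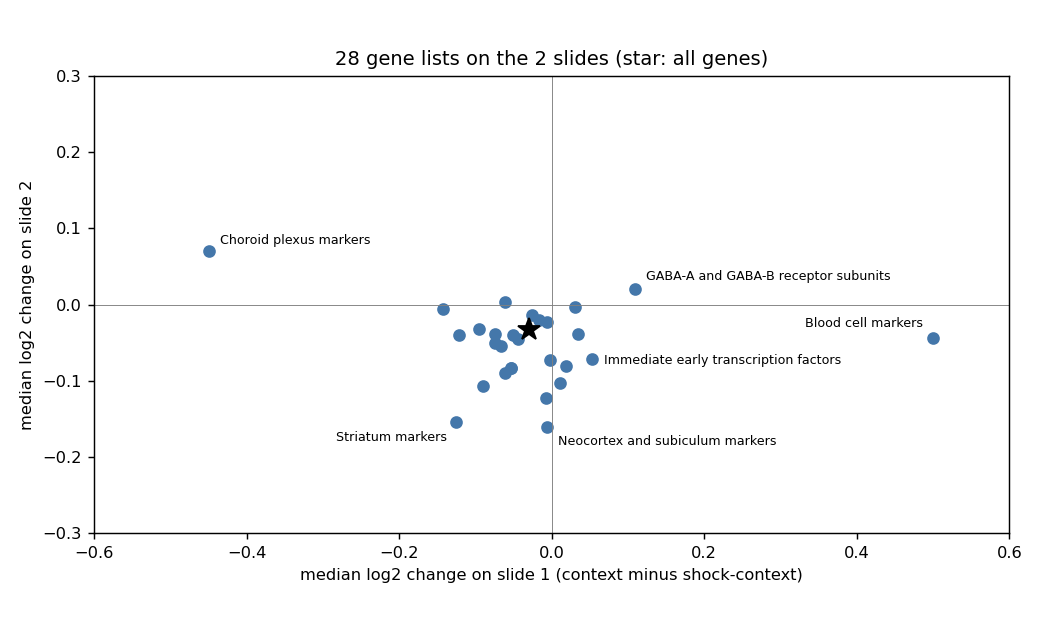
Median log2 change, context minus shock-context, of each of 28 gene lists on slide 1 (horizontal axis) and on slide 2 (vertical axis), 2 arrays per group on each slide, with all genes as a star. Most lists lie near the star at -0.03 and -0.03; choroid plexus markers lie at -0.45 and 0.07 and blood cell markers at 0.50 and -0.04.

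The genes with the smallest unadjusted p are named here by rule, and none passed after adjustment (adjusted p = 0.372 for each, limma). Higher after context were 9430065F17Rik, Zfp697, Rad54b, Zfp459, Pggt1b, Zfp808, Vps37a, Zfp994, Utp14a, Slc38a11, Zfhx4 and A330008L17Rik, with changes of 0.32 to 0.58. Those with a known role include Rad54b of homologous recombination, Pggt1b of protein prenylation and Vps37a of the endosomal ESCRT machinery. The amino acid transporter gene Slc38a11 had the largest change, standing at -3.25, -3.17, -3.08 and -3.07 after context and at -3.60, -3.61, -3.56 and -4.14 after shock-context. Its change was 0.58 ± 0.12, with a 95% interval of 1.23 to 1.83-fold, 0.64 on slide 1 and 0.53 on slide 2. Vps37a stood at 0.52, 0.35, 0.59 and 0.50 against 0.21, 0.24, 0.10 and 0.00, and its 3 probes ran from 0.05 to 1.01. The groups were apart for 11 of the 12, Zfp459 being the exception, against 823 of all 21565 genes in this direction (3.82%). The genes named by smallest p, in either direction, were picked on these same arrays. Groups that lie apart among them therefore follow largely from that choice and are no further evidence.

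Lower after context were Bcl2l12, Apol7a, Pde4dip, Olfr635, Rgs12, Prcc, Odf2, Ugt2b35, Igsf21, Gpr162, Ralb and Tdrd1, with changes of -0.73 to -0.31. Rgs12, which shortens G-protein signalling, stood at 2.40, 2.36, 2.00 and 2.26 after context and at 2.56, 2.48, 2.74 and 2.84 after shock-context. Its change was -0.40 ± 0.08, -0.41 on slide 1 and -0.39 on slide 2. Igsf21, a synaptic adhesion gene, lay at -0.33 ± 0.07, with the context arrays at 2.63 to 2.79 and every shock-context array at 2.99 or more. Ralb, a small GTPase, lay at -0.34 ± 0.07 and Prcc, a splicing-related gene, at -0.31 ± 0.06, both apart between the groups. Pde4dip, an anchor of phosphodiesterase, lay at -0.36 ± 0.07, but its 6 probes ran from -0.36 to 0.33, and the probes of Bcl2l12 (-0.36 and 0.21) and Odf2 (-0.32 to 0.24) also disagreed in sign. Ugt2b35 and Apol7a were well above background on only 1 and 2 of 4 context arrays.

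Changes over 2-fold rested on few arrays. Of the 53 such genes 41 were higher after context, 29 of them lowest of 8 on shock-context 4, and 11 of the 41 remained over 2-fold without that array. Only 10 of the 53 were well above background on all 8 arrays. Peg10, an imprinted gene derived from a retrotransposon, stood at -4.55, -4.63, -4.88 and -4.87 after context and at -5.43, -5.72, -5.98 and -8.06 after shock-context. Its groups were apart, shock-context 4 was far below the rest, and the change was 1.57 with that array and 0.98 without it (adjusted p = 0.372, limma). Groups were apart in this direction for 823 genes (3.82%). Peg10 was well above background on 3 of 4 shock-context arrays. Prl and Gh, the pituitary hormone genes of prolactin and growth hormone, had the largest estimated differences with context lower. These 2 and Peg10 were singled out after their values were seen. Prl stood at 0.03, -7.19, -6.46 and -1.12 after context and at -0.70, -1.53, -0.48 and -0.60 after shock-context. Prl was well above background on 3 of 4 context arrays. Gh stood at -1.04, -5.72, -7.13 and -2.36 against -1.75, -2.15, -1.58 and -1.48. Both genes were low on context 2 and context 3, which lie on different slides, and high on the other 6 arrays, with unadjusted p of 0.121 and 0.0960.

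**Figure D4:**
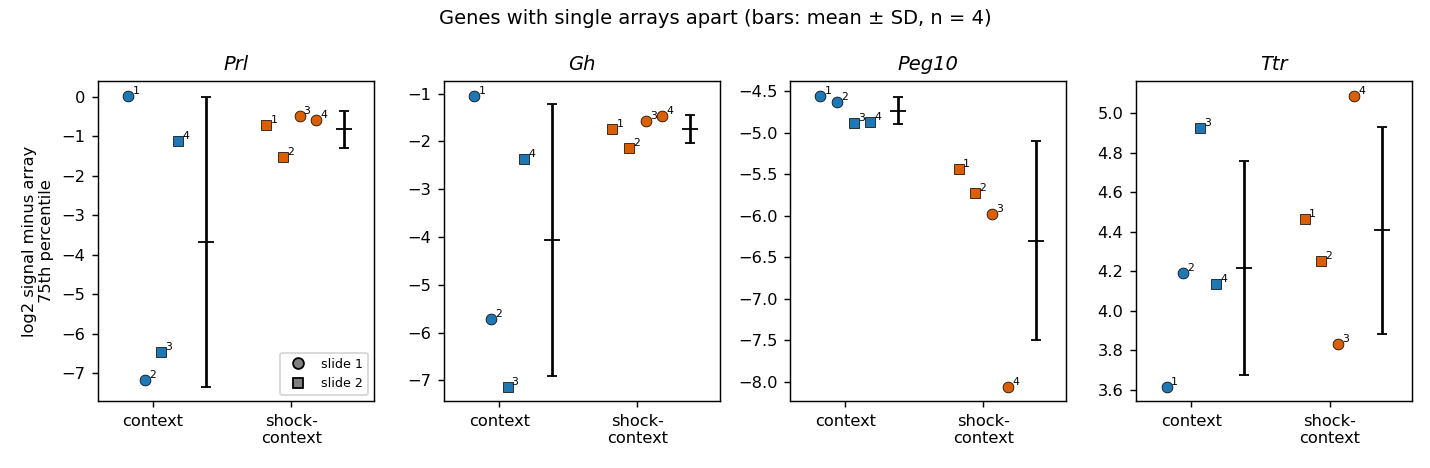
Log2 signal minus the 75th percentile of the array for Prl, Gh, Peg10 and Ttr, 1 point per array, numbered by replicate and shaped by slide, with the mean ± SD of 4 arrays. Context 2 and 3 are low for Prl and Gh, shock-context 4 is low for Peg10 at -8.06, and Ttr overlaps between the groups.

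The panel genes were set beside fear conditioning, as the change from handled to fear-conditioned mice on the 8 arrays of the first run, with slide as block. These arrays share no mouse, slide or scan run with the 8 above, so differences in the run cannot be told apart from differences in the exposure when levels are compared, and only changes within a run are set side by side. There 14190 of 25548 genes passed (55.5%), 3321 higher (13%) and 10869 lower (42.5%), and 1704 passed with normexp background correction. The fear conditioning changes of the genes named below, and their differences from context minus shock-context, were not examined with that correction. Fos was 2.41 higher after fear conditioning (adjusted p = 0.00536, limma) against 0.28 for context over shock-context, and the difference of the 2 changes was 2.13 ± 0.55 (adjusted p = 0.0140, limma, 4 arrays in each of 4 groups). Homer1 gave 0.95 against 0.06, a difference of 0.89 (adjusted p = 0.00108, limma). Fkbp5 gave 0.95 against 0.02 and Per1 0.81 against -0.04, with differences of 0.93 and 0.86 (adjusted p = 0.00307 and 0.00429, limma). Of 24 glucocorticoid-induced genes 3 passed as higher and 8 as lower after fear conditioning (median -0.17). Junb gave 0.78 against 0.13, Dusp1 0.47 against 0.09, Sgk1 0.20 against -0.03 and Nr4a1 0.24 against 0.04. Npas4 gave -0.08 against -0.06 and Tsc22d3, on another probe, -0.17 against -0.08. The differences of Junb, Dusp1, Sgk1, Nr4a1, Npas4 and Tsc22d3 did not pass (adjusted p from 0.110 to 0.963, limma). The baseline was handled mice for fear conditioning and shocked mice for context.

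Gfap gave 1.33 against -0.07 and Prkca, which encodes the alpha isoform of protein kinase C, 1.32 against 0.06, with adjusted p of 8.55e-05 and 0.000312 for the difference by limma. Fmn2, an actin-nucleating formin, gave 0.81 against a change that was 0.10 on the probe used and -0.03 on another (adjusted p = 0.0120 for the difference on the probe used, limma). Egr2 gave 1.45 against 0.08, a difference that did not pass (adjusted p = 0.0673), and Egr1 gave 0.47 against -0.01 (adjusted p = 0.103, limma). Arc gave 0.41 against 0.30 and a difference of 0.11 ± 0.48 (adjusted p = 0.866, limma), so that its change here was not distinguishable from that after fear conditioning at this number of arrays. Neither Arc change passed by itself (adjusted p = 0.404 after fear conditioning and 0.380 here, limma). Bdnf gave -0.25 against 0.15, a difference of -0.41 (adjusted p = 0.0205, limma). Neither Bdnf change passed by itself (adjusted p = 0.0882 and 0.428, limma), and -0.25 lay near the median of -0.26 over all genes after fear conditioning. Ttr gave -4.83 against -0.19, a difference of -4.64 (adjusted p = 0.00210, limma). From handling to fear conditioning, 27 of 28 choroid plexus markers passed as lower, with a median of -2.41 against -0.26 over all genes. Of 24 thalamus markers 16 passed as higher and 2 as lower, with a median of 0.77. The part of tissue content in the fear conditioning changes of the genes named here was not tested. Over all genes 8355 of 25461 differences passed (32.8%).

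**Figure D5:**
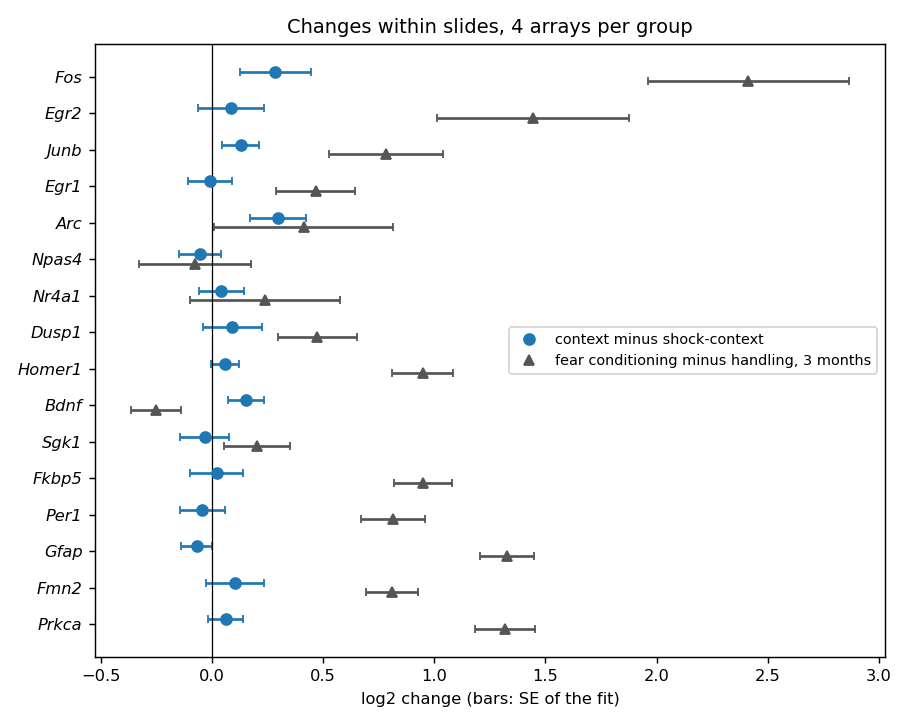
Log2 change ± SE of 16 genes for context minus shock-context (circles) and for fear conditioning minus handling at 3 months (triangles), 4 arrays per group. The circles lie between -0.07 and 0.30, and the triangles reach 2.41 for Fos.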

How the data were processed

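Scanner files of 8 arrays (context and shock-context, 4 mice each) and of 8 arrays of handled and fear-conditioned mice were read. Per the file headers, the authors' Agilent Feature Extraction 9.5.3.1 output gives signal intensity per spot, and the processed signal used here is background-subtracted. Per the headers, probe positions of the 8 arrays are in mm9. The deposited value table was taken as log2 from its values, since neither its scale nor its normalization is given in the sources used here; it served as an alternative.

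Levels are log2 of the processed signal minus the 75th percentile of the array. Control spots were dropped, and outlier spots counted as missing (199 genes lacked a value on at least 1 array). Spots of a probe were averaged, a probe was kept where 4 or more of the 8 arrays had it well above background, and the probe of highest mean stood for a gene, leaving 21565 genes, 16603 with a RefSeq symbol. Group and slide were fitted in limma 3.58.1 (R 4.3.3; 5 residual degrees of freedom) with eBayes, two-sided, and Benjamini-Hochberg adjustment over all genes at 0.05. Arrays limit precision by their number, and the script was tested on simulated data. The alternatives were other scalings, background corrections, filters, blocks and arrays left out. The difference of changes was fitted over 16 arrays.

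Genes were named by rule: the 12 largest changes past the threshold in each direction or, where fewer passed, those of smallest p; up to 4 members of each of 28 lists by p; and an 18-gene panel. The groups, lists and panel were chosen with earlier results of these data known. Each array is 1 mouse, per the series' design text. Some list members are not reported here.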

Additional observations from a re-analysis of the deposited data

Results flagged for a closer look

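In 152 groups of 4 arrays examined, 9 had a single array far from the other 3, where chance gives about 1 in 20. Among genes, Slc38a11 stood at -4.14 on shock-context 4, Ugt2b35 at -5.54 on the same array as its highest shock-context value, Egr1 at 3.04 on context 2 and Fmn2 at -0.63 on context 3. Context 3 had 350 outlier spots and 83 saturated spots. The mean level of immediate early transcription factors was lowest among shock-context arrays at 0.30 (array 3). That of antigen presentation and interferon genes was highest among context arrays at -1.13 (array 2), and that of striatum markers was lowest among shock-context arrays at -1.62 (array 1).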

How the results depend on the processing

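All 24 alternatives (23 planned, and context 3 with shock-context 4 left out, chosen after seeing the data) gave 0 genes past the threshold, as did leaving out each array (0 to 0), and the lowest adjusted p ran from 0.148 to 0.960. The counts at an unadjusted p under 0.05 ran from 1022 to 4090, and from 1733 to 3369 with 1 array left out; the low ends were without shock-context 1 (1800) and 2 (1733), against 2830. The count was 1881 without the slide block and 1960 without the arrays that stood apart. With the replicate number as block 0 genes passed (1022 unadjusted), and 0 with number and slide (2379); same-numbered arrays correlated at -0.50 to -0.43, but each such pair lay on different slides, where pairs correlate at -0.60 to -0.30, so this does not show whether the numbers pair mice, and they were not taken to. For fear conditioning against handling the count was 1704 with normexp background correction and ran from 10457 to 11797 with 1 array left out. Of 152 named genes 14 turned sign under some alternative, 6 of them under another scaling or background correction. Shared limits are 4 mice a group and an interval whose median half-width is 0.23 log2 units.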

Other observations

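Transcripts without a RefSeq symbol and genes with one had different medians in the fit used here, a difference that was not tested and that depends on the background correction. Of 4962 such transcripts 711 were higher and 213 lower after context at an unadjusted p under 0.05 (14.3% and 4.29%), with a median change of 0.06 (-0.01 with normexp background correction). Of 16603 genes with a symbol 541 were higher and 1365 lower (3.26% and 8.22%), with a median of -0.05. The class medians were 0.07 and -0.05 on slide 1 and 0.05 and -0.05 on slide 2. Of 5 equal bins of genes by signal, the dimmest gave medians of 0.09 without and -0.03 with a symbol, and the brightest -0.03 and -0.07. Shock-context 4 was the extreme low array for 231 transcripts without a symbol, and without it the class median was 0.04. The part of signal level in this difference was not tested further.

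Genes grouped by their response to fear conditioning also had different medians in context minus shock-context, on arrays that share no mouse with that response. Of 3096 genes higher after fear conditioning 66.7% lay above the median of all genes, with a median of 0.02. Of 8085 genes lower after it 40% lay above, with a median of -0.08, and of 9538 uncalled genes 53%. These differences were not tested. The calls after fear conditioning fell from 14190 to 1704 genes with normexp background correction, and the grouping was not repeated with it. The part of signal level or background was not tested either.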
